A study of Mus musculus with 8 samples.

Results

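Apolipoproteins are the protein coat of the particles that carry lipid through blood, and hepatocytes make most of them. The genes described here are 9 apolipoprotein genes of liver (Apoa1, Apoa2, Apoa4, Apoa5, Apob, Apoc1, Apoc2, Apoc3 and Apoe) together with Mttp, whose product loads lipid onto apolipoprotein B. They were taken by symbol, and all 10 had exactly 1 entry among the 55401 gene identifiers of the count table. All 10 also passed the filter on low counts, which left 17669 genes for testing.

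Apolipoprotein B forms the backbone of very low density lipoprotein (VLDL), and microsomal triglyceride transfer protein, encoded by Mttp, lipidates it in the endoplasmic reticulum before the particle is secreted. Apolipoproteins A-I and A-II are the main proteins of high density lipoprotein (HDL). The small C apolipoproteins and apolipoprotein A-V set how fast plasma triglyceride is cleared: C-II is the cofactor of lipoprotein lipase, A-V promotes lipolysis, and C-III slows lipolysis and the uptake of remnants. Apolipoprotein E is the ligand by which remnants bind receptors on hepatocytes, and A-IV is an apolipoprotein of intestine and, in the mouse, also of liver that enters newly made triglyceride-rich particles and HDL.

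The livers were those of immunodeficient NOD scid gamma (NSG) mice bearing subcutaneous tumours of a human colorectal cancer line. In 4 libraries the tumour was Colo201, described by the series as high in FGF19, and in the other 4 it was HCT116, described as low in FGF19. FGF19 is a gut hormone that acts on hepatocytes, and the series asks what tumour-derived FGF19 does to the host's liver. The ages of the mice are not given. All hosts carried a tumour and each line came at a single FGF19 level, so FGF19 and any other difference between the 2 tumours cannot be told apart. In both lines 2 libraries carried the label Male and 2 the label Female. Libraries are called by line and by the number and letter of their title, 2L, 2R (labelled Male), 4L and 4R (labelled Female) for Colo201 and 1L, 1R (labelled Male), 3L and 3R (labelled Female) for HCT116. Whether L and R of a number came from different animals is not stated, so p-values reflect the spread among these libraries, which may be technical.

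Totals ran from 61347603 to 65457482 estimated counts, so depth was nearly even. Levels are given as CPM, counts scaled to a common library size. All 8 hepatocyte markers were tested. Their summed level was 117072 to 158984 CPM in Colo201 hosts and 102445 to 138668 CPM in HCT116 hosts. Of the 8, 1, Ahsg, was called higher in Colo201 hosts, as were 2.48% of all tested genes. Since Apoa4 and Apob are also intestinal genes, 8 enterocyte markers were read: Sis and Lct were at 0 in all 8 libraries, 5 of the 8 stayed under 1 CPM, and the summed level was 44.75 to 59.47 CPM in Colo201 and 46.84 to 61.66 CPM in HCT116 hosts. Under the label Male Xist ranged from 253 to 366 CPM, against 0.276 to 0.805 CPM under the label Female, while the Y-linked Ddx3y was at 0 in the former and at 37.6 to 63.5 CPM in the latter. In all 8 libraries Xist and Ddx3y thus ran opposite to the sex label, which is therefore used only as a label.

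In FPKM, which divides by gene length and so allows genes to be compared, the HDL proteins stood first. Apoa2 had a mean of 10847 ± 819.3 FPKM over all 8 libraries (SD, n = 8) and was the gene with rank 3 among those tested, and Apoa1 followed with 9053 ± 1546 FPKM at rank 4. Their ranges overlapped, although Apoa2 was above Apoa1 in 8 of 8 libraries. Apoe (4782 ± 1123 FPKM), Apoc1 (2143 ± 152.3 FPKM) and Apoc3 (1139 ± 343.4 FPKM) came next, each with a range apart from that of its neighbours in the order. Below them stood Apoa5 at 517.6 ± 71.68 FPKM, Apoa4 at 195.6 ± 184.4 FPKM and Apob at 183.7 ± 86.97 FPKM. Apoa5 overlapped Apoa4 in range and was above it in 7 of 8 libraries, and Apoa4 and Apob could not be ordered, with Apoa4 above in 3 of 8. Apoc2 (48.86 ± 63.16 FPKM) and Mttp (34.26 ± 2.403 FPKM) closed the order and overlapped as well. The place of Apoc2 is uncertain, because it shares exonic bases with another gene, Gm44805, as described below. Together the 10 genes held 3.879 ± 0.2942% of all counts in Colo201 hosts and 3.668 ± 0.3681% in HCT116 hosts (SD, n = 4 each), ranges that overlapped. The plot of CPM by library shows each gene on its own axis.

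**Figure D1:**
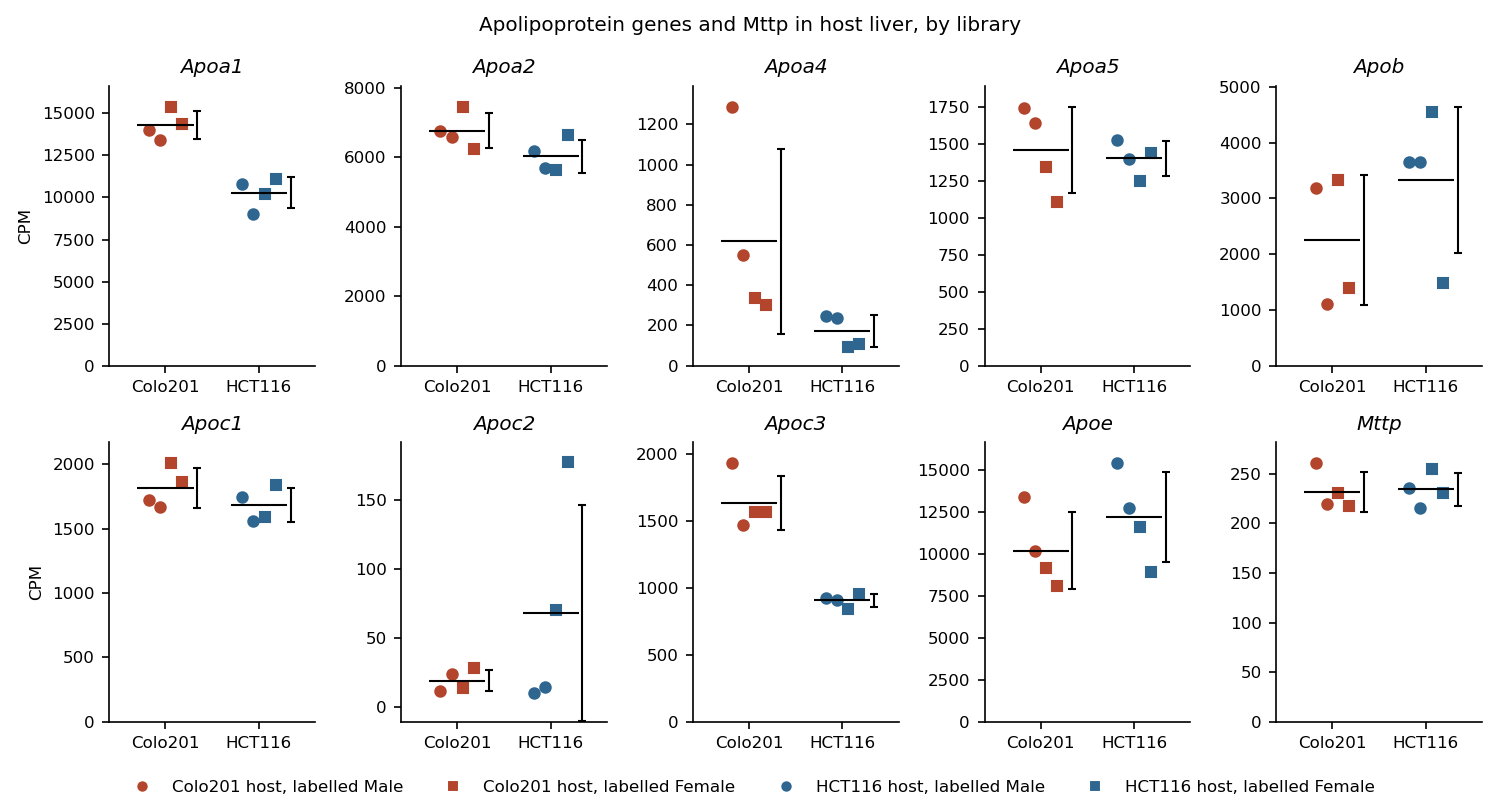
CPM of the 10 genes in each of the 8 liver libraries (points), with the mean (line) and SD (bar) of each group of 4; color marks the tumour line and shape the sex label. For Apoa1, Apoa4 and Apoc3 all 4 Colo201 libraries lie above all 4 HCT116 libraries, while the other 7 genes overlap.

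The comparison of lines asked which of these genes differed in livers of Colo201 hosts against HCT116 hosts. Apoa4, Apoc3 and Apoa1 were higher in Colo201 hosts, by 3.457-fold, 1.796-fold and 1.389-fold, and 0 of the 10 were lower by edgeR or DESeq2. These are 3 of 10 called (edgeR quasi-likelihood test with sex label as a covariate, adjusted p under 0.05), where 4.78% of all tested genes were called in either direction and 2.48% were called higher. The same 3 were those whose libraries did not overlap between lines, against 12.3% of all tested genes without overlap in either direction. The median log2 fold change over the 10 genes was 0.08, and over all tested genes it was 0.0. The other 7 genes did not pass, with log2 fold changes from -1.04 (Apoc2) to 0.17 (Apoa2). The 3 called genes were also the only ones of the 10 with an unadjusted p under 0.05. In whole liver a difference of this kind may lie in the number of hepatocytes or in the RNA of each, and which of these was not tested. Of 8 hepatocyte markers 1 was called higher, and Apoa5 and Mttp had log2 fold changes of 0.04 and -0.01.

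Apoa1, which encodes the main protein of HDL, was at 13999, 13426, 15395 and 14351 CPM in the Colo201 libraries, in the order given above. The HCT116 libraries had 10810, 9040, 10201 and 11094 CPM. The lowest Colo201 library was thus above the highest HCT116 library, in both sex labels. The means were 14293 ± 827.9 and 10286 ± 910.5 CPM (SD, n = 4 each), and the log2 fold change in edgeR was 0.47 with an SE of 0.07 and an adjusted p of 0.0167. The call was lost without Colo201 4L (adjusted p = 0.0541), HCT116 1R (adjusted p = 0.0522) or HCT116 3L (adjusted p = 0.0582), with the log2 fold change at 0.43 to 0.45. Apoa1 was also not called in FPKM (adjusted p = 0.0939 with a pseudocount of 1).

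Apoa2, the second HDL protein, stood at 6748, 6584, 7448 and 6244 CPM in Colo201 hosts and at 6178, 5678, 5620 and 6623 CPM in HCT116 hosts, in the same library order. The 2 groups overlapped, with the lowest Colo201 library under the highest HCT116 library. Its log2 fold change was 0.17 (SE 0.08, adjusted p = 0.297, edgeR). Within each library the ratio of Apoa1 to Apoa2 in FPKM, which library scaling cannot move, was 0.886 to 0.9985 in Colo201 hosts and 0.6918 to 0.7886 in HCT116 hosts, without overlap. Since Apoa1 was without overlap on its own, a separation of this ratio is partly built in.

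Apoa4 was at 1288, 550.0, 335.4 and 301.6 CPM in the Colo201 libraries and at 245.8, 235.9, 95.31 and 108.1 CPM in the HCT116 libraries. Every Colo201 library was above every HCT116 library, and within each line both libraries labelled Male were above both labelled Female. Colo201 2L was more than 2 times as high as any other library. The mean was 618.7 ± 459.4 against 171.3 ± 80.6 CPM (SD, n = 4 each), and the log2 fold change in edgeR, 1.79 (SE 0.23, adjusted p = 0.00878), was the widest of the 10 genes. Without Colo201 2L it was 1.47 (adjusted p = 0.00436). The call needed the sex label in the fit: with no covariate the log2 fold change was 1.85 with an adjusted p of 0.115.

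Apoc3, the brake on triglyceride clearance, was at 1934, 1474, 1566 and 1565 CPM in Colo201 hosts and at 924.3, 910.2, 844.9 and 958.6 CPM in HCT116 hosts. The HCT116 libraries lay close together, and the lowest Colo201 library was well above the highest of them. The means were 1635 ± 204.3 and 909.5 ± 47.66 CPM (SD, n = 4 each). Its log2 fold change in edgeR was 0.84 (SE 0.10), and its adjusted p of 0.00561 was the smallest of the 10. The call held without each library in turn, at 0.75 to 0.91. All 3 calls were lost when the libraries of a title number were summed, which left 4 libraries, with adjusted p of 0.108 for Apoa4 and 0.123 for Apoa1 and Apoc3 at log2 fold changes of 1.78, 0.48 and 0.84.

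Apoa5, whose product promotes lipolysis, was at 1745, 1644, 1342 and 1107 CPM in Colo201 hosts and at 1529, 1398, 1246 and 1438 CPM in HCT116 hosts. The Colo201 libraries spanned the whole range of the HCT116 libraries. The log2 fold change was 0.04 (SE 0.11, adjusted p = 0.868, edgeR). The ratio of Apoc3 to Apoa5 in FPKM, an inhibitor of lipolysis over its promoter, was 2.757, 2.231, 2.901 and 3.516 in Colo201 hosts against 1.503, 1.619, 1.686 and 1.658 in HCT116 hosts. It was higher in every Colo201 library than in any HCT116 library, and so was the ratio of Apoa4 to Apoa5, at 0.3472 to 1.025 against 0.1045 to 0.2345. Apoc3 and Apoa4 were without overlap on their own, so these ratios are no separate test. The ratio of Apoa1 to Apoa5 overlapped, at 16.37 to 26.45 against 13.19 to 16.70.

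**Figure D2:**
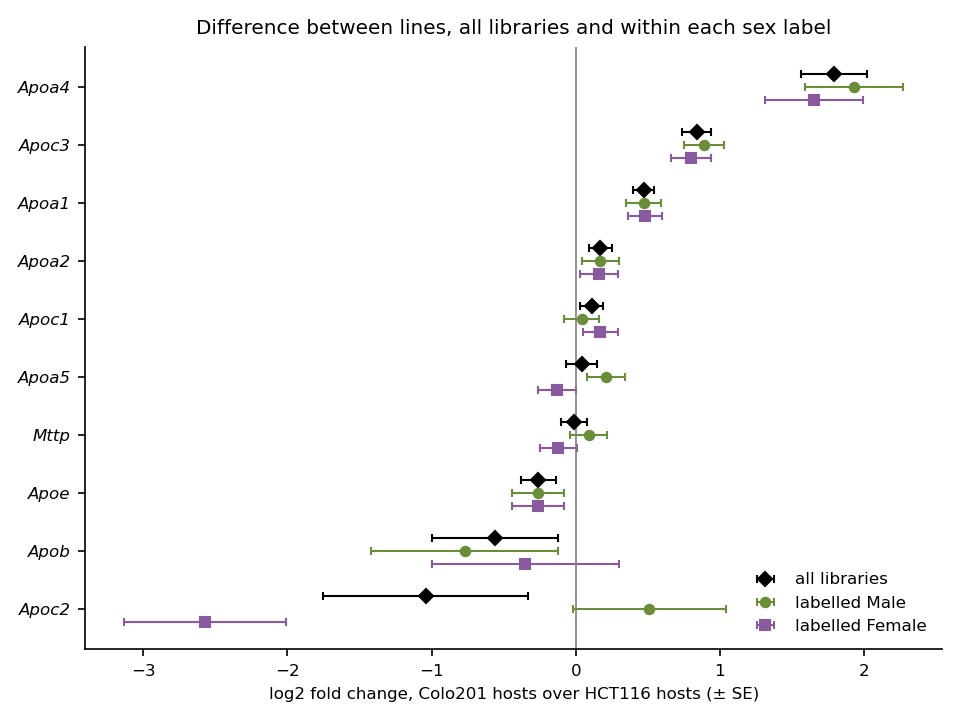
Log2 fold change of each gene between Colo201 and HCT116 hosts (± SE, edgeR), over all libraries and within each sex label. Apoa4, Apoc3 and Apoa1 lie to the right of 0 under both labels, and Apoc2 is the gene whose values under the labels stand farthest apart.

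The 3 genes that were higher are neighbours. In GRCm38 with the GENCODE vM21 annotation, Apoa1 (ENSMUSG00000032083) lies at chr9:46228580-46230466 on the plus strand, Apoc3 (ENSMUSG00000032081) at chr9:46232933-46235636 on the minus strand, Apoa4 (ENSMUSG00000032080) at chr9:46240696-46243459 on the plus strand and Apoa5 (ENSMUSG00000032079) at chr9:46268633-46271919 on the plus strand. The 4 genes span 43.3 kb. The gaps are 2466 bases from Apoa1 to Apoc3, 5059 bases from Apoc3 to Apoa4 and 25173 bases from Apoa4 to Apoa5, so the gene without a call is the one set apart. Of 4 other tested genes inside the cluster or within 200 kb of it, 0 were called by edgeR, 1 had an unadjusted p under 0.05, and DESeq2 called that 1 (Gm47528): the log2 fold change was -0.09 for Sik3, -0.26 for Zpr1, 0.19 for Bud13 and 1.18 for Gm47528 (SE 0.37, adjusted p = 0.11). Over all tested genes edgeR called 4.78% in either direction, and DESeq2 called 970 higher and 1023 lower. Gm47528 is read from the opposite strand of Apoa4 and shares 634 exonic bases with it. It reached 5.65 CPM at most, and because the strand setting of the counting is not given, its reads and those of Apoa4 cannot be told apart.

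**Figure D3:**
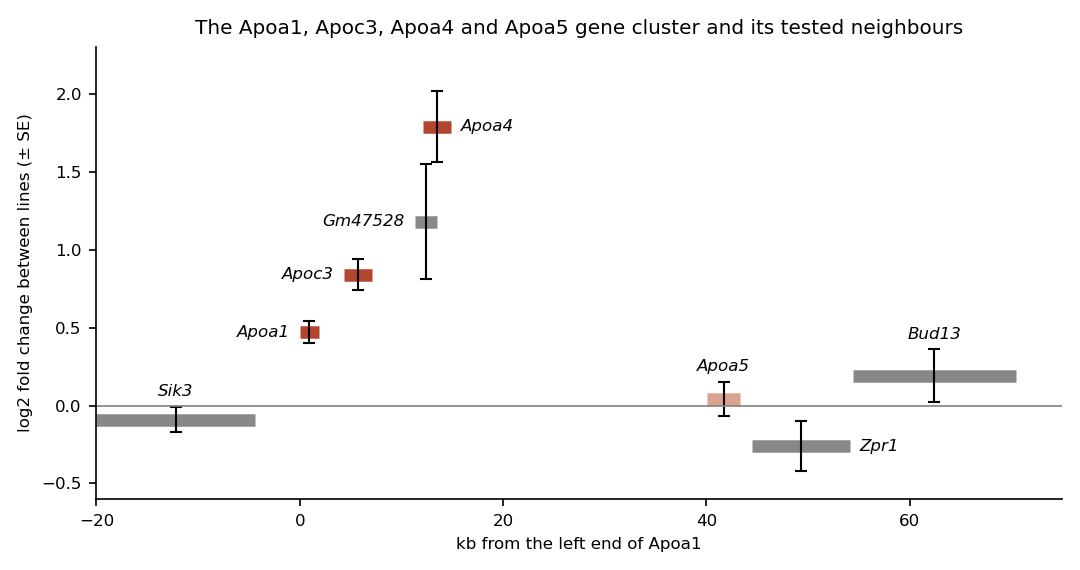
Log2 fold change between lines (± SE) of the 4 cluster genes and the other tested genes, drawn at their place in kb from the left end of Apoa1 (bars span the gene, and Sik3 runs on past the left edge). Called genes are dark red, Apoa5 pale red and other genes grey; the called genes lie within the first 14.9 kb.

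The start regions of 3 cluster genes are given from the RefSeq promoter table (GRCm38.p6, 250 bases before to 50 after the start of the entry). They are given since 3 genes of this cluster were higher in Colo201 hosts while Apoa5 did not pass. Entries existed for 8 of the 10 genes, and Apoc3, a called gene of this cluster, had none. The windows are chr9:46228380-46228679 for Apoa1, chr9:46240594-46240893 for Apoa4 and, of 2 entries for Apoa5, chr9:46268383-46268682, all on the plus strand. Both strands were searched for TATAAA (the TATA box), CAAAGNNCA (letters shared by sites of HNF4 and related receptors), TGACGT (the core of a cAMP response element) and TNTTTAC (forkhead letters), and capitals mark the matches.
Apoa1: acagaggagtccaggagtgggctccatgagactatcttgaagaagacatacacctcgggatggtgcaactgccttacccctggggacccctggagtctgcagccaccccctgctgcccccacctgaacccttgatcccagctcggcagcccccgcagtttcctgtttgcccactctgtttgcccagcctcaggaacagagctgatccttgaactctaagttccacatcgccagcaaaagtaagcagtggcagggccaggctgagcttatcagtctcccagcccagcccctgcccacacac
Apoa4: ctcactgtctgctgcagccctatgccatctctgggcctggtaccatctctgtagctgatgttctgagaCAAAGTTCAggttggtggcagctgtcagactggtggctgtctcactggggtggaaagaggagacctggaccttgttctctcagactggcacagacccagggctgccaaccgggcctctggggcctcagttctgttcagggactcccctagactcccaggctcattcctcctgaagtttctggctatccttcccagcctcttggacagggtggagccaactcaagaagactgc
Apoa5: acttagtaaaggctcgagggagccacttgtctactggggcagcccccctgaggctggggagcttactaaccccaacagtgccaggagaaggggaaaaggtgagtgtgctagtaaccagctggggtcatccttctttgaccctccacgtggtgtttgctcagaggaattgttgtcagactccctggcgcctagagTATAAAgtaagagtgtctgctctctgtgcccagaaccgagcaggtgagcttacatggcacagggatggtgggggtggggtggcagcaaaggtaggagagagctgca
The Apoa1 window held 0 of the 4 motifs. The Apoa4 window held CAAAGNNCA on the plus strand, its first base 182 before the start of the RefSeq entry. The Apoa5 window held TATAAA 56 before the start of its entry, which is 31 before the start of the other Apoa5 entry. For Apoa1 and Apoa4 the entry starts inside the gene as annotated above, so distances do not run from the annotated gene start. Much of the Apoa4 window thus lies within the annotated gene. Over all 32851 promoters listed there, 6.36% held CAAAGNNCA, 13.6% TATAAA, 7.51% TGACGT and 12.4% TNTTTAC. The 3 windows had similar base composition, at 59.3%, 57.3% and 56.0% GC.

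Apob (ENSMUSG00000020609, chr12:7977648-8016835, plus strand, 29 exonic blocks) was at 3189, 1108, 3325 and 1391 CPM in Colo201 hosts and at 3651, 3657, 4552 and 1476 CPM in HCT116 hosts. The groups overlapped widely, since Colo201 2R and 4R and HCT116 3R were low and the other 5 libraries were high. Means were 2253 ± 1166 and 3334 ± 1309 CPM (SD, n = 4 each). The log2 fold change in edgeR was -0.56 with an SE of 0.44 and an adjusted p of 0.509. The highest library was 4.109 times the lowest. Among 168 other genes with at least 10 kb of exon and a mean of at least 50 CPM, the median of this ratio was 1.544, and 8 exceeded Apob (Xist, Noct, Zhx3, Nfia, Insr, Glo1, Egfr and Slc1a2). All the other long genes were less abundant than Apob, and those next in mean level ranged widely in this ratio: it was 1.94 for Fn1 (fibronectin), 1.248 for Lrp1 (a remnant receptor), 4.07 for Acsl1 (an acyl-CoA synthetase) and 6.041 for Egfr. Among 116 genes with a mean of at least 1000 CPM and above 0 in all libraries, the median ratio was 1.606 and 7 exceeded Apob. What sets the low and high libraries apart was not tested.

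**Figure D4:**
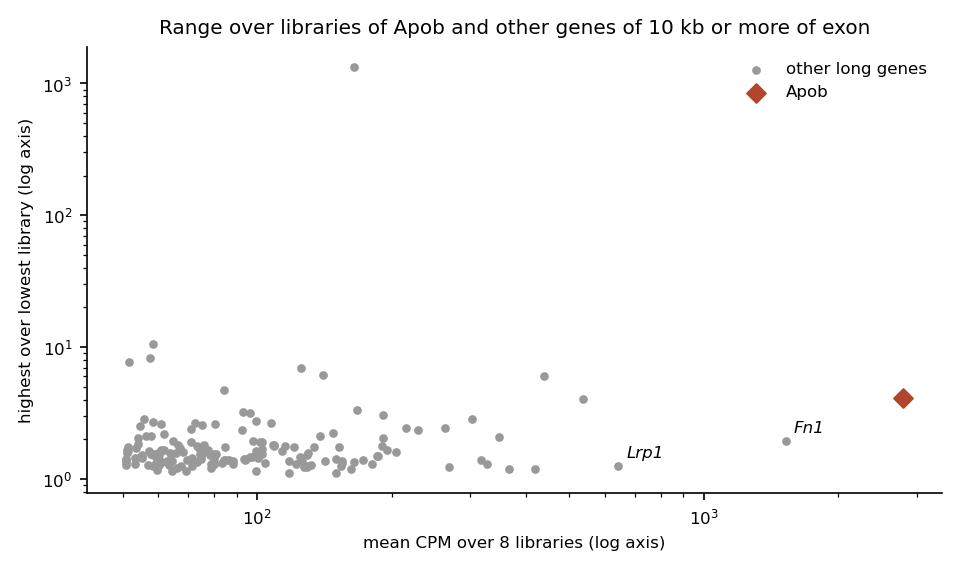
Highest over lowest library against mean CPM, both on log axes, for Apob and 168 other genes with at least 10 kb of exon. Apob stands at 4.109, against a median of 1.544 for the others; the point above 1000 is Xist.

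Mttp (ENSMUSG00000028158, chr3:138089854-138144968, minus strand), the lipid loader of apolipoprotein B, was at 260.7, 219.5, 230.5 and 217.0 CPM in Colo201 hosts and at 235.5, 215.4, 255.1 and 230.4 CPM in HCT116 hosts. It was the steadiest of the 10 genes, with the highest library 1.21 times the lowest. Across the 8 libraries its log2 CPM had a Pearson r of 0.55 with Apob, its highest with any of the other 9 genes. The log2 fold change was -0.01 (SE 0.09, adjusted p = 0.952, edgeR). Trmt10a, on the opposite strand, shares 457 exonic bases with Mttp and reached 6.36 CPM at most.

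Apoe (ENSMUSG00000002985, chr7:19696109-19699188, minus strand), the receptor ligand of remnants, was at 13393, 10168, 9127 and 8077 CPM in Colo201 hosts and at 15399, 12743, 11611 and 8935 CPM in HCT116 hosts. The groups overlapped, and in both lines the libraries labelled Male stood above those labelled Female. Macrophages also express Apoe; 8 Kupffer cell and macrophage markers had a summed level of 145.2 to 427.6 CPM in Colo201 hosts and 244.9 to 379.2 CPM in HCT116 hosts, and their part in the values of Apoe was not tested. The log2 fold change between lines was -0.26 (SE 0.12, adjusted p = 0.262, edgeR). Apoc1 (ENSMUSG00000040564, chr7:19689481-19692660, minus strand), which hinders receptor uptake of remnants, was at 1720, 1668, 2009 and 1863 CPM against 1746, 1555, 1592 and 1837 CPM. These values overlapped too (edgeR 0.11 on the log2 scale, SE 0.08, adjusted p = 0.495).

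Apoc2 (ENSMUSG00000002992, chr7:19671579-19677941, minus strand) was at 11.72, 23.71, 13.63 and 28.09 CPM in Colo201 hosts and at 10.06, 14.85, 70.47 and 177.8 CPM in HCT116 hosts. The values of HCT116 3L and 3R stood above the rest, and the groups overlapped (edgeR log2 fold change -1.04 with an SE of 0.71 and an adjusted p of 0.442). Apoc2 shares 646 exonic bases on the same strand with Gm44805, an annotated read-through of Apoc4 into Apoc2. Gm44805 was at 178.3, 145.1, 319.1 and 134.5 CPM in Colo201 hosts and at 138.4, 91.35, 33.11 and 0.4339 CPM in HCT116 hosts, so it was lowest in the libraries where Apoc2 was highest. Apoc2 took 4.096 to 17.27% of the sum of both in Colo201 hosts, and 6.776, 13.98, 68.04 and 99.76% in the HCT116 libraries. How the counting shared reads between the pair is not given, so the deposited value of Apoc2 alone is uncertain. Summed, the pair stood at 190.0, 168.8, 332.7 and 162.6 CPM in Colo201 hosts and 148.5, 106.2, 103.6 and 178.2 CPM in HCT116 hosts. The sum, chosen after the data were seen, turned the direction: its log2 fold change was 0.65 (SE 0.25, adjusted p = 0.177, edgeR). With Apoc4, the neighbour whose transcript the read-through starts in, added as well it was 0.30 (SE 0.10, adjusted p = 0.137).

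**Figure D5:**
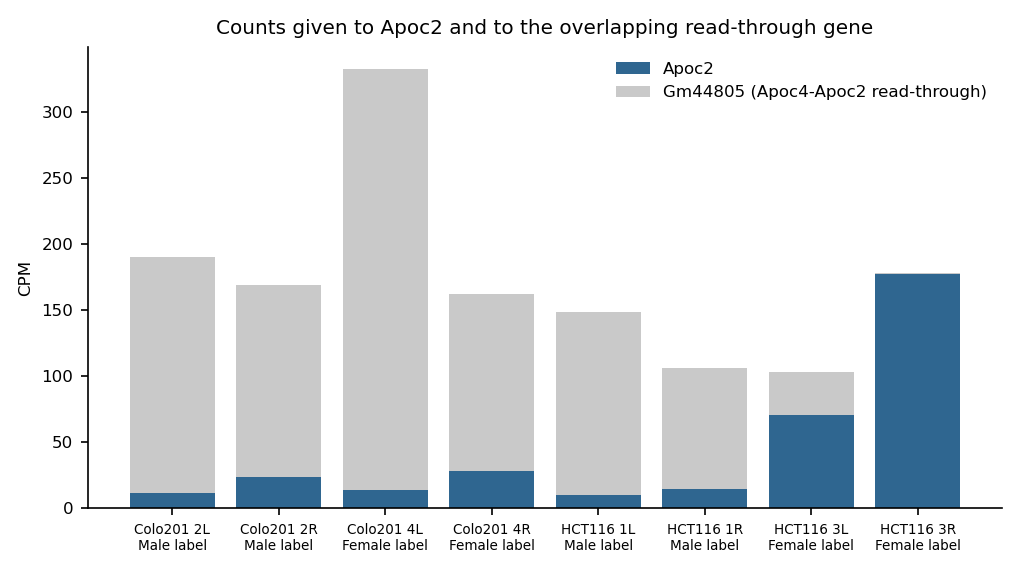
CPM counted for Apoc2 (blue) and for the overlapping read-through gene Gm44805 (grey), stacked, in each library. Apoc2 takes most of the sum in HCT116 3L and 3R (68.04 and 99.76%) and at most 17.27% in the other 6 libraries.

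Apoc2, Apoc1 and Apoe form the other cluster, which spans 27.6 kb of chromosome 7, and 0 of its 3 members were called between lines by edgeR or DESeq2, with unadjusted p in edgeR from 0.0648 to 0.222. Of 17 other tested genes inside it or within 200 kb, 2 were higher in Colo201 hosts: Cblc, an adaptor ubiquitin ligase (0.64, SE 0.12, adjusted p = 0.0259), and Bcam, a cell adhesion molecule (0.73, SE 0.17, adjusted p = 0.0484). In edgeR 6 of the 17 had an unadjusted p under 0.05, and DESeq2 called 3, Cblc, Bcam and Nectin2. Over all tested genes edgeR called 4.78% in either direction, and DESeq2 called 970 higher and 1023 lower. The share of all genes with an unadjusted p under 0.05 is not given here. Apoa2 (ENSMUSG00000005681) lies alone at chr1:171225054-171226379 on the plus strand.

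Within the libraries labelled Male, 2 against 2, 0 of the 10 genes were called by edgeR, where 0.232% of all tested genes were. The log2 fold changes there were 1.93 for Apoa4 (SE 0.34, adjusted p = 0.0941), 0.89 for Apoc3 (SE 0.14, adjusted p = 0.0777) and 0.47 for Apoa1 (SE 0.12, adjusted p = 0.189), and these were the 3 genes with an unadjusted p under 0.05. Within those labelled Female 0 of the 10 were called, where 0.492% of all genes were, and 4 had an unadjusted p under 0.05. There the log2 fold change of Apoa4 was 1.65 (SE 0.34, adjusted p = 0.103), that of Apoc3 0.80 (SE 0.14, adjusted p = 0.0735), that of Apoa1 0.48 (SE 0.12, adjusted p = 0.141) and that of Apoc2 -2.57 (SE 0.56, adjusted p = 0.115). DESeq2 called Apoa1, Apoa4 and Apoc3 under both labels and Apoc2 among those labelled Female. For the interaction (Colo201 over HCT116 under the label Female, less the same under the label Male) 0 of the 10 were called by edgeR and by DESeq2, against 0.0283% of all genes in edgeR. The 1 gene with an unadjusted p under 0.05 was Apoc2 (-3.08, SE 0.77, adjusted p = 1.0), which stood at 0.32 (SE 0.52, adjusted p = 1.0) when summed with Gm44805.

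Between sex labels, with line as a covariate, 1 of the 10 genes was called, where 4.02% of all tested genes were. Apoa4 was higher in libraries labelled Male (edgeR log2 fold change 1.39, SE 0.23, adjusted p = 0.014) and remained called without each library in turn. The value for Apoe was 0.45 in the same direction (SE 0.12, adjusted p = 0.0818), and DESeq2 called it (adjusted p = 0.0175). Apoa5 stood at 0.30 (SE 0.11, adjusted p = 0.175) and Apoc2 in the opposite direction at -1.78 (SE 0.72, adjusted p = 0.233), the widest of the 10. These 4 genes had an unadjusted p under 0.05, while Apoa1 (-0.11), Apoa2 (-0.04) and Apoc3 (0.07) had smaller values. Each title number holds 1 line and 1 sex label, so label and title number cannot be told apart within a line.

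Of the other apolipoproteins and HDL proteins, 10 of 11 were tested, 2 were higher in Colo201 hosts, 0 were lower and 8 did not pass (median log2 fold change 0.06, against 0.0 over all genes). The share called over all tested genes was 4.78% in either direction. Apom, the HDL protein that carries sphingosine 1-phosphate, stood at 424.4 ± 46.85 against 239.1 ± 29.79 CPM (0.83, SE 0.10, adjusted p = 0.00717, edgeR). Clu, clusterin or apolipoprotein J, stood at 1828 ± 397.4 against 1219 ± 123.4 CPM (0.57, SE 0.11, adjusted p = 0.03). Among those that did not pass, the smallest p-values were those of the HDL esterase Pon1 (-0.25, adjusted p = 0.124), Apoc4 (0.19, adjusted p = 0.167), the acute phase apolipoprotein Saa1 (-0.54, adjusted p = 0.189) and Apon (0.34, adjusted p = 0.202).

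Of 20 genes for the assembly and export of VLDL, 2 were higher, 2 lower and 16 not called (median 0.03). In either direction 4.78% of all tested genes were called. Ces1d, a carboxylesterase that mobilizes stored triglyceride for VLDL, stood at 435.6 ± 128.6 CPM in Colo201 hosts against 1138 ± 294.2 CPM in HCT116 hosts (-1.40, SE 0.10, adjusted p = 0.000845, edgeR). A1cf, which guides the editing of Apob mRNA, stood at 34.6 ± 1.967 against 58.62 ± 12.58 CPM (-0.76, SE 0.15, adjusted p = 0.032), whereas the editing enzyme Apobec1 stood at -0.01 (adjusted p = 0.986). Pla2g12b, a factor of lipoprotein secretion, rose by 0.48 (adjusted p = 0.0224) and Cideb, which enlarges nascent VLDL, by 0.33 (adjusted p = 0.0459). P4hb, the second subunit of the Mttp complex, stood at 1398 ± 87.68 against 1324 ± 66.0 CPM (0.08, adjusted p = 0.599). Fitm2 (-0.44, adjusted p = 0.0661), Soat2 (-0.46, adjusted p = 0.0979) and Sort1 (0.27, adjusted p = 0.18) were the next by p and were not called.

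Of 10 receptors and factors of lipoprotein uptake, 1 was higher and 9 did not pass (median 0.26). Among all tested genes 4.78% were called in either direction. Sdc1, the heparan sulfate proteoglycan that binds remnants, rose by 0.36 (SE 0.08, adjusted p = 0.0383, edgeR), although its libraries overlapped. Scarb1, the HDL receptor (0.37, adjusted p = 0.0764), and Lsr, a receptor of triglyceride-rich particles (0.39, adjusted p = 0.0829), did not pass. Among genes of plasma lipolysis and HDL remodelling, Lcat (-0.23, adjusted p = 0.126), Lmf1 (0.19, adjusted p = 0.261) and Angptl4 (-0.25, adjusted p = 0.392) did not pass.

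Of 21 regulators of apolipoprotein genes, 1 was higher, 1 lower and 19 not called (median 0.14). The share of all tested genes called in either direction was 4.78%. Nr1d1, the clock repressor REV-ERB alpha, rose by 1.32 (SE 0.19, adjusted p = 0.0124, edgeR), and Nr1h4, the bile acid receptor FXR, fell by 0.46 (SE 0.07, adjusted p = 0.0131); both are known as repressors of Apoc3. The activator Hnf4a was at 619.2 ± 37.89 against 689.7 ± 31.75 CPM (-0.16, adjusted p = 0.244). Creb3l3, an activator of Apoa4, was at 372.6 ± 60.19 against 305.1 ± 11.36 CPM (0.28, adjusted p = 0.172), and its other targets Fgf21 (0.53, adjusted p = 0.729) and Cidec (0.19, adjusted p = 0.786) did not pass. Nr1h3 (0.34, adjusted p = 0.0509), Ppara (-0.67, adjusted p = 0.0642) and Nr1h2 (0.31, adjusted p = 0.07) did not pass.

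Across the 8 libraries the Pearson r of log2 CPM among the called genes was 0.91 for Apoa1 and Apoc3, 0.85 for Apoa4 and Apoc3 and 0.61 for Apoa1 and Apoa4. Some pairs with a gene that was not called, or of such genes alone, exceeded the last of these, with 0.82 for Apoa1 and Apoa2, 0.81 for Apoa2 and Apoc1, 0.73 for Apoa1 and Apoc1, 0.69 for Apoa2 and Apoc3 and 0.66 for Apob and Apoe. These values are a description, since the libraries share lines, labels and scaling. With Apoa5 the r was 0.03, 0.59 and 0.23 for Apoa1, Apoa4 and Apoc3. Among 9140 named genes with a mean of at least 5 CPM, those most like Apoa1 were Bcar1 (r = 0.984), Anp32a (0.980) and Rab13 (0.979). Those most like Apoc3 were Mkrn1 (0.991), Pcbd1 (0.986) and Ndufaf8 (0.984). Those most like Apoa4 were Cxxc5 (0.979), Zfp954 (0.973) and Ahsg (0.973). Ahsg, a hepatocyte marker, was itself higher in Colo201 hosts (0.37, adjusted p = 0.0253, edgeR). Cxxc5 (0.17, adjusted p = 0.196) and Zfp954 (0.33, adjusted p = 0.142) were not called. Since all were picked by their r with a called gene, a difference between lines is partly built in.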

How the data were processed

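Polyadenylated RNA of mouse liver was sequenced in 8 stranded libraries, per the labels' protocols. The submitters' processing notes name HISAT2, StringTie and the build GRCm38 (mm10). Tool versions, gene models and strandedness in counting are not given in the sources at hand. The authors deposited a table of estimated counts in whole numbers and a table of FPKM. Of the deposited estimated counts from 1 to 16, 44.7% were multiples of 4, where an even spread gives 25%. The FPKM table served for levels between genes and for alternatives. Symbols came from GENCODE vM21, with 260 identifiers left without one.

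Counts entered edgeR 4.0.16 in R 4.3.3 as deposited (filterByExpr, TMM, glmQLFit, glmQLFTest). Lines were compared with the sex label as covariate, at 5 residual degrees of freedom; comparisons within a label and the interaction came from a fit of 4 means with 4. P-values are two-sided and adjusted by Benjamini-Hochberg over all 17669 tested genes, with a threshold of 0.05. Each SE follows from the fold change and the F value, and CPM from TMM-scaled library sizes. Alternatives were other scalings, filters and covariates, DESeq2 1.42.0, limma 3.58.1 by voom and on log2 FPKM (pseudocount 1 or 0.1), omission of the 20 most abundant genes, counts divided by 4, libraries summed by title number, and each library left out. No 2 libraries were duplicates (lowest chi-square per gene 52.78). The lowest values were those of L and R of the same title number (52.78 to 106.9), and all other pairs were at 133 or more. L and R of a number also share line and sex label.

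The 10 genes, the lists and the motifs were chosen with earlier results of these data known. Named were all 10 genes, list members that passed with up to 4 others of smallest p, members of the same step, and for each called gene the 3 with the highest r. The fits were tested on simulated counts of independent libraries, which does not cover any likeness of L and R within a title number. All columns were used. Some genes of the lists are not reported here.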

Additional observations from a re-analysis of the deposited data

How the results depend on the processing

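Apoa4, Apoc3 and Apoa1 were higher in Colo201 hosts under every alternative run: Apoc3 kept its call in 20 of 21, Apoa4 in 19 of 21 and Apoa1 in 14 of 20, with log2 fold changes of 0.75 to 0.91, 1.47 to 1.97 and 0.43 to 0.53. With the libraries of a title number summed, edgeR called 0 of the 10 genes and 0 genes in all, higher or lower, although 6 of the 10 and 3518 of 19704 tested had an unadjusted p under 0.05; that sum leaves 4 libraries. The 439 genes higher and 406 lower became 970 and 1023 in DESeq2 and 88 and 67 with no covariate, and 292 were higher on log2(FPKM + 1). Leaving out a library gave 86 to 267 higher and 89 to 283 lower. Within labels, the 0 of 10 genes called higher became 1 with library totals alone (Apoc3) and 3 in DESeq2 under both labels, 1 without a filter (Male) and 1 in limma voom (Female), and 0 to 2 with a library left out; DESeq2 called 1 lower among those labelled Female. DESeq2 called 2 of the 10 between labels, not 1. In FPKM the 10 genes held 7.175% in Colo201 and 6.532% in HCT116 hosts.

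Genes near 0 changed sign: Apoa5 gave -0.00023 and -0.00026 on log2(FPKM + 1) and log2(FPKM + 0.1) and -0.02 to 0.13 with a library left out, and Mttp -0.09 to 0.04. Apoc2 turned to 0.65 summed with Gm44805 and to 0.30 with Apoc4 added, alternatives chosen after the data were seen. For these the cause was not tested, beyond the reads that are joined by construction. The median over all genes lay between -0.032 and 0.009 in every setting. Apoa1, Apoa2 and Apoe are among the 20 most abundant genes and have no value without those. No paired analysis was possible because the lines share no replicate numbers. Of the 10 genes Apoc2 had the lowest value in a library, 10.06 CPM, so sampling error of the counts was small beside the spread between libraries. The sharing of reads between Apoc2 and Gm44805 is a separate uncertainty that this level does not address.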

Other observations

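The range of Apob over libraries was shared in part by other genes, named here after their values were seen. Among named genes with a mean of at least 5 CPM, those closest to Apob in log2 CPM over the 8 libraries were Cox11, an assembly factor of cytochrome oxidase (Pearson r = 0.964), Ythdc1, a nuclear reader of methylated RNA (0.940), Smg6, the endonuclease of nonsense-mediated decay (0.937), and Nfe2l1, a transcription factor of proteasome genes (0.935). Nfe2l1 was at 73.3, 29.91, 129.4 and 21.18 CPM in the Colo201 libraries 2L, 2R, 4L and 4R, and at 130.7, 134.7, 110.3 and 35.48 CPM in the HCT116 libraries 1L, 1R, 3L and 3R. Its 3 lowest libraries were those where Apob was lowest, and its highest library was 6.36 times its lowest, a wider range than that of Apob. The range of Cox11 was 1.262-fold, with the same 3 libraries lowest. Neither was called between lines by edgeR, with adjusted p of 0.591 for Nfe2l1 and 0.734 for Cox11. Both were picked by their r with Apob, so a shared set of low libraries is partly built in.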
